A study of Paramacrobiotus metropolitanus with 7 samples.

Results

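The 76 transcripts described here had low levels in the first of 3 female RNA-Seq libraries of the tardigrade *Paramacrobiotus metropolitanus* and high levels in the third. They were chosen on their female values alone: a mean of at least 50 TPM over the 3 female libraries, the lowest value in female library 1, the highest in female library 3, and a value in library 3 of at least 4 times that in library 1 after 0.1 was added to both. They made up 0.289% of the 26306 transcripts measured and 1.91% of the 3976 transcripts with a female mean of at least 50 TPM. TPM is a unit of transcript abundance that corrects for transcript length and for the size of the library, and the values used here had also been rescaled between libraries. The numbers of the libraries name replicates and stand for no age, time or dose, so the order across female libraries is a description of 3 samples and was not tested. The members came from 76 different loci.

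Both sexes were of the TYO strain and untreated. Animals hatched from singly kept eggs were reared apart until their sexual organs could be seen, and pooled whole bodies of 1 sex gave poly A-selected RNA for 3 female and 4 male libraries. The labels give neither an age nor a rearing batch for a library. Nothing says that the pools of a sex came from separate cultures, so p-values measure only the spread between these pools, which may be technical.

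*P. metropolitanus* has separate sexes. A tardigrade female carries a single sac-like ovary in which oocytes are provisioned with yolk before laying, and a male carries a testis, so RNA of a whole body is a mixture of germ line, gut, epidermis, muscle and storage cells. The share of each changes with egg production, feeding and moulting, and in pooled bodies more cells of a type and more RNA per cell cannot be told apart. Of the gene families named by the authors and checked here, only the secretory-abundant heat-soluble (SAHS) proteins had a member. Other annotation of the members was not used. SAHS proteins are tardigrade proteins that stay soluble on heating and are linked to survival of drying.

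A pair of DMRT transcription factor transcripts, from a family known for roles in male development of many animals, followed the sex labels. The authors reported both as higher in males from these same libraries, so their levels are no independent check of the labels. PARRI_0003090.t1 had 0.173, 1.16 and 0.163 TPM in females and 31.4, 15.4, 73.4 and 15.4 TPM in males, and PARRI_0003093.t1 was listed at 0 in every female and had between 2.49 and 10.8 TPM in males. Library sums ran between 912584 and 1085011 in females and between 891117 and 1127677 in males. All 76 members passed the filter for testing, a value of at least 1 TPM in at least 3 of the 7 libraries, which 18420 transcripts passed in all. Females were set against males with limma, a linear model fitted to all tested transcripts on the scale log2(TPM + 0.1), and a transcript was called at a Benjamini-Hochberg false discovery rate (FDR) below 0.05.

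In females the members differed most between library 1 and the other two. Their median level was 25.3 TPM in female library 1, 121 TPM in library 2 and 166 TPM in library 3. On the log2 scale, female library 2 lay nearer to library 3 than to library 1 in 72 of the 76 members, at a median of 0.792 of the way from library 1 to library 3. The ratio of library 3 to library 1 had a median of 5.91 and quartiles of 4.61 and 10.4. Library 2 stood a median of 4.18 times above library 1, and library 3 a median of 1.52 times above library 2.

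In the 4 exceptions the wider step lay between libraries 2 and 3. PARRI_0005816.t1 had 40.6, 46.5 and 310 TPM in female libraries 1 to 3, and its neighbour PARRI_0005815.t1 had 54.1, 137 and 492 TPM. At the other end stood PARRI_0013934.t1, with 6.42, 123.8 and 123.9 TPM, where libraries 2 and 3 were nearly equal.

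Among all transcripts with a female mean of at least 50 TPM, the order library 1, 2, 3 from low to high was the most frequent, with 2404 transcripts at any ratio. Large ratios were more often in the opposite order: a 4-fold span separated the extremes in 157 transcripts that were highest in library 1 and lowest in library 3, against the 76 members. In another 94 transcripts library 1 was lowest by the same 4-fold span and library 2 was highest. The other three orders held 27 transcripts in all at a 4-fold span.

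How many transcripts met the rule depended on the scale of the libraries. With every library rescaled to the same sum, 48 of the 76 met it and no other transcript did, and the count was also 48 after quantile normalization. Female library 1 had the lowest sum of the females and library 3 the highest, and the part of these sums in the order was not tested. Just inside the ratio of 4 were PARRI_0005401.t1 with a ratio of 4.10, PARRI_0000506.t1 with 4.12 and PARRI_0000943.t1 with 4.13. Just outside were PARRI_0005862.t1 with 3.97, PARRI_0002504.t1 with 3.94 and PARRI_0011554.t1 with 3.91. At the limit on the mean, PARRI_0008909.t1 with 50.8 TPM and PARRI_0005405.t1 with 52.9 TPM were members, while PARRI_0024525.t1 with 48.9 TPM and PARRI_0007990.t1 with 48.6 TPM were not.

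**Figure D1:**
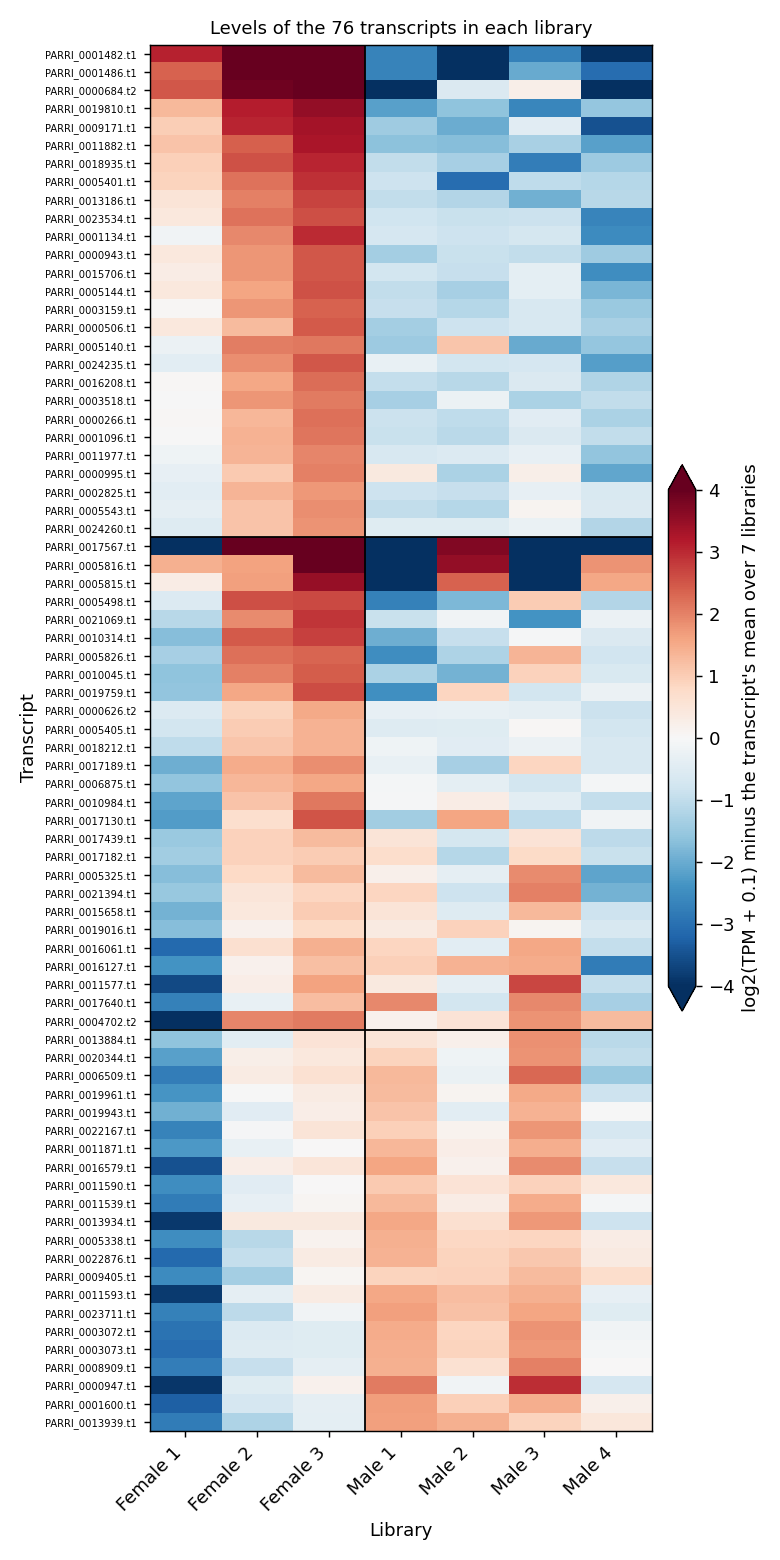
Levels of the 76 members in each library, as log2(TPM + 0.1) minus the transcript's mean over the 7 libraries, with the 3 female libraries left of the 4 male libraries. Horizontal lines separate the 27 members whose male mean lay below female library 1 (top), the 27 with a male mean between female libraries 1 and 3, and the 22 with a male mean above female library 3 (bottom). Male library 3 is highest among males in 46 members and male library 4 lowest in 49.

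Male levels split the members into 3 blocks of similar size, shown by the map of levels in each library. In 27 members (35.5%) the male mean lay below female library 1, the lowest female library. In another 27 (35.5%) it lay between female libraries 1 and 3, and in 22 (28.9%) it lay above female library 3. The blocks changed by at most 4 members when any single male library was left out.

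The block with low male levels had female means between 54.5 and 15145 TPM, with a median of 98.2 TPM, and male means between 1.83 and 117 TPM, with a median of 14.6 TPM. The female mean was 2.95 to 274 times the male mean, with a median of 6.60. In the intermediate block the medians were 132 TPM in females and 56.7 TPM in males. In the block with high male levels the median was 88.7 TPM in females and 331 TPM in males, and the male mean was 1.84 to 5.30 times the female mean. The ratio of female library 3 to library 1 had a median of 4.50 in the block with low male levels, 12.1 in the intermediate block and 6.09 in the block with high male levels. The same female libraries bound the blocks, and a wider female range more easily holds a male mean, so nothing is read from these medians.

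Summed over the members, the level was 7735, 34089 and 48206 TPM in the females and 19729.9, 11509, 29778 and 6565 TPM in the males. The 2 groups overlapped, with female library 1 between the male libraries. These sums rested on few transcripts, because PARRI_0001486.t1 held 52.4%, 50.6% and 50.1% of the female sums and at most 1.45% of a male sum. Without it the female sums were 3680, 16856 and 24059 TPM and the male sums 19604, 11459, 29583 and 6469 TPM.

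A female bias was called in 24 of the 76 members, or 31.6%, and a male bias in 10, or 13.2%, by limma at an FDR below 0.05. Over all tested transcripts, the female-biased share was 23.9% and the male-biased share 25.3%. Among tested transcripts with a female mean of at least 50 TPM, the level the members had to reach, these shares were 49.4% and 5.61%. The same female values chose the members and entered this contrast, so the counts describe the members and nothing is read from them against these shares. The remaining 42 members were not called, 22 with a positive and 20 with a negative difference of females minus males. The median log2 difference was 0.93 over the members, −0.50 over all tested transcripts and 0.82 over those with a female mean of at least 50 TPM. Quantile normalization moved the median over all tested transcripts to −0.01, and the members then stood 0.62 above it, against 1.43 above it as deposited.

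All 24 female-biased members lay in the block with low male levels, and all 10 male-biased members in the block with high male levels. The blocks and the calls were made from the same values, so nothing is read from their agreement. Every female library was above every male library in 21 members (27.6%), against 25.9% of all tested transcripts and 52% of those with a female mean of at least 50 TPM. The 4 males all exceeded the 3 females in 9 members (11.8%), against 28.1% and 6.84% in the same order. Every member without overlap was called.

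Female library 1 and single male libraries weighed on these counts. Without female library 1, limma called 40 members higher in females and 43 had no overlap in that direction. That library was the lowest female in every member by choice. The calls over all tested transcripts, in either direction, also moved, with 10490 without it against 9072 with all libraries. The male-biased members numbered 4 without male library 1 and 5 without male library 3, and 2 when no filter on low values was used. Over all tested transcripts, the calls in either direction were 6621, 7237 and 8376 in the same order. Without male library 4, 14 members had all males above all females. Of the 24 members called higher in females, 19 were called under each alternative setting and without each library in turn, and of the 10 called higher in males, PARRI_0001600.t1, PARRI_0008909.t1, PARRI_0009405.t1 and PARRI_0013939.t1 were called without each library in turn.

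**Figure D2:**
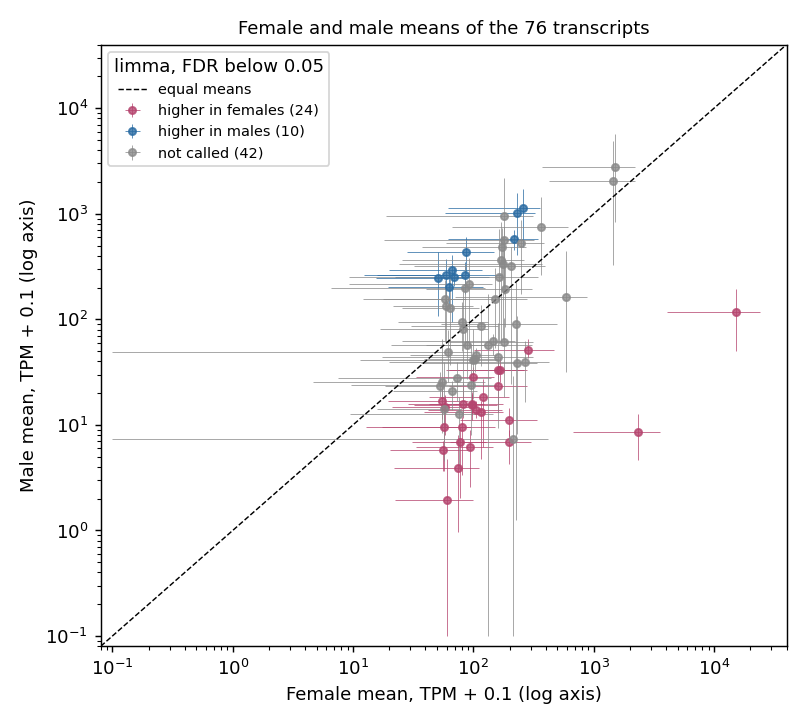
Female mean (x axis) and male mean (y axis) of each of the 76 members, TPM + 0.1 on log axes, with bars from the lowest to the highest library of each sex. Of the members, 24 were called higher in females (pink, below the dashed line of equal means), 10 higher in males (blue, above it) and 42 were not called (grey), by limma at an FDR below 0.05.

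The most abundant female-biased members were PARRI_0001486.t1 and PARRI_0001482.t1, whose locus numbers are 4 apart. No function is annotated for either in the sources used here. PARRI_0001486.t1 had 4055, 17233 and 24146 TPM in females, against 126, 50.4, 195 and 95.5 TPM in males. PARRI_0001482.t1 had 679, 2748 and 3585 TPM in females, against 12.5, 4.54, 12.2 and 4.51 TPM in males. In both, even the lowest female library was more than 10 times any male library. The log2 difference was 6.83 ± 0.68 for PARRI_0001486.t1 (limma, SE, Benjamini-Hochberg FDR 0.000413) and 7.96 ± 0.64 for PARRI_0001482.t1 (FDR 0.000287).

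PARRI_0001486.t1 had few reads for its TPM level, although its count in females lay above the upper quartile of 729 over the members. The authors' mean normalized count in females was 947 for PARRI_0001486.t1 and 1463 for PARRI_0001482.t1, although PARRI_0001486.t1 had the higher TPM level of the pair in every library. The count per TPM, which follows the effective length of the transcript, was 0.0625 for PARRI_0001486.t1 and had a median of 3.67 over the members. Over all transcripts with a female mean of at least 50 TPM that median was 8.21, with quartiles of 3.86 and 14.5.

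A further 4 members completed the set of 6 with the largest differences in favour of females. PARRI_0000684.t2 had 22.3, 59.4 and 99.995 TPM in females, and in males it was listed at 0 in libraries 1 and 4 and had 2.62 and 4.70 TPM in libraries 2 and 3. PARRI_0019810.t1 had 64.3, 231 and 300.1 TPM in females, against 5.77, 8.48, 4.17 and 8.79 TPM in males. The groups were wide apart in both, with no library of 1 sex inside the range of the other. PARRI_0009171.t1 had 21.9, 90.2 and 111 TPM in females, against 3.97, 2.68, 7.86 and 0.877 TPM in males. PARRI_0011882.t1 had 76.6, 185 and 336 TPM in females, against 11.2, 10.7, 14.3 and 7.69 TPM in males, the smallest ratio of highest to lowest male library among the 6. The log2 differences of these 4 were 6.41 ± 1.48, 4.64 ± 0.54, 4.30 ± 0.79 and 3.96 ± 0.48 (limma, SE), with Benjamini-Hochberg FDR of 0.00873, 0.000617, 0.00328 and 0.000696.

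PARRI_0013186.t1, among the 4 members with the lowest male mean, had 20.01, 56.4 and 90.2 TPM in females, against 6.91, 6.06, 3.56 and 6.40 TPM in males. PARRI_0018935.t1 had 33.5, 102 and 145 TPM in females, against 8.83, 6.84, 2.47 and 6.29 TPM in males. In both, female library 1 was still above every male library. PARRI_0016208.t1, the female-biased member next in abundance after the pair above, had 101, 285 and 464 TPM in females, against 50.6, 45.8, 65.3 and 42.7 TPM in males. Its log2 difference was 2.23 ± 0.48 (limma, SE, Benjamini-Hochberg FDR 0.00637).

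Over the 24 female-biased members the log2 difference ran between 1.53 and 7.96, with a median of 2.68, and the female mean was 3.26 to 274 times the male mean, with a median of 7.26. Members just inside the ratio of 4 belonged to this group. PARRI_0005401.t1 had 30.7, 75.7 and 126 TPM in females, against 9.38, 1.93, 8.23 and 7.45 TPM in males, and PARRI_0000943.t1 had 41.6, 104 and 172 TPM in females, against 11.9, 16.6, 15.5 and 11.5 TPM in males.

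The male-biased members included a pair at adjacent locus numbers. PARRI_0003072.t1 had 58.3, 311 and 324 TPM in females, against 1277, 818, 1563 and 407 TPM in males. PARRI_0003073.t1 had 61.1, 357 and 361 TPM in females, against 1402, 949.8, 1698 and 485 TPM in males. Both were lowest in female library 1 and highest in male library 3, and the males lay above the females without overlap. The log2 difference was −2.32 ± 0.69 for PARRI_0003072.t1 (limma, SE, Benjamini-Hochberg FDR 0.0251) and −2.36 ± 0.70 for PARRI_0003073.t1 (FDR 0.0241). Without male library 1 and without male library 3 neither was called, with differences between −2.21 and −2.06, and neither was called when no filter on low values was used.

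PARRI_0013939.t1 had the largest difference of all the male-biased members. It had 27.8, 82.3 and 148 TPM in females, against 599, 511, 358 and 266 TPM in males. Unlike most members it was highest in male library 1. PARRI_0001600.t1 had 12.1, 74.2 and 92.2 TPM in females, against 375, 226, 322 and 137 TPM in males. PARRI_0008909.t1 had 15.4, 55.5 and 81.4 TPM in females, against 284, 159, 429.98 and 106 TPM in males. In all 3 transcripts even the lowest male library exceeded the highest female library. Their log2 differences were −2.57 ± 0.55, −2.50 ± 0.70 and −2.37 ± 0.65 (limma, SE), with Benjamini-Hochberg FDR of 0.00663, 0.0193 and 0.0182. When no filter on low values was used, PARRI_0001600.t1 and PARRI_0008909.t1 were not called (limma, Benjamini-Hochberg FDR 0.0602 and 0.0569).

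PARRI_0023711.t1, the sixth of the male-biased members, was the only called member of that direction with overlapping groups: it had 19.7, 62.8 and 117 TPM in females, against 406, 295, 384 and 93.3 TPM in males. Its log2 difference of −2.28 ± 0.70 (limma, SE, Benjamini-Hochberg FDR 0.0269) was not called without female library 1, female library 2, male library 1, male library 2 or male library 3, nor when no filter on low values was used. Over the 10 male-biased members the male mean was 2.63 to 5.04 times the female mean, with a median of 4.38.

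**Figure D3:**
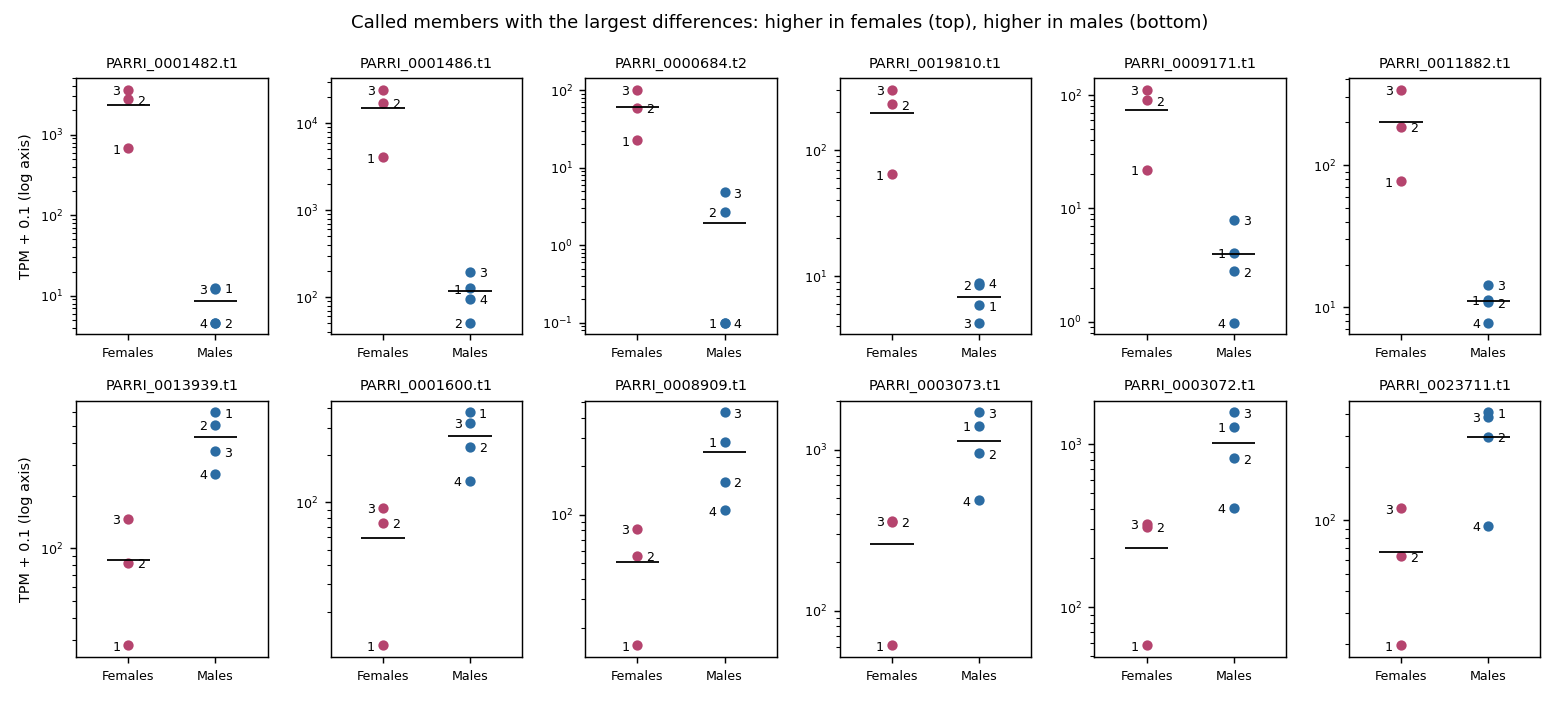
Levels in single libraries (TPM + 0.1, log axes that differ between panels) of the 6 members with the largest difference called higher in females (top) and the 6 called higher in males (bottom). Points are libraries marked with their numbers, females left of males, and horizontal lines are means. Female library 1 is the lowest female in every panel, and only PARRI_0023711.t1 has overlapping sexes.

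The most abundant members in males were not called, and single male libraries differed widely in them. PARRI_0020344.t1 had 369, 1947 and 2222 TPM in females, against 3101, 1482, 5712 and 830.4 TPM in males. PARRI_0021394.t1 had 428, 1691 and 2184 TPM in females, against 2205, 690.1, 4866 and 329 TPM in males. Female library 1 and male library 4 were the low libraries of their sex in both, and the groups overlapped. Their log2 differences were −0.89 ± 0.82 and −0.10 ± 0.96 (limma, SE), with Benjamini-Hochberg FDR of 0.377 and 0.933.

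PARRI_0000947.t1 and PARRI_0022167.t1 had the same low and high libraries. PARRI_0000947.t1 had 18.8, 203 and 315 TPM in females, against 1177, 256, 2187 and 175 TPM in males, a 12.5-fold span among males. PARRI_0022167.t1 had 66.1, 414 and 606 TPM in females, against 816, 470.01, 1456 and 264 TPM in males. Neither was called, with limma differences of −2.45 ± 1.16 and −1.28 ± 0.83 (SE) and Benjamini-Hochberg FDR of 0.108 and 0.219.

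PARRI_0010314.t1 and PARRI_0005826.t1 were abundant in females and low in most male libraries. PARRI_0010314.t1 had 19.9, 352 and 429 TPM in females, against 16.5, 33.5, 62.7 and 42.8 TPM in males. It had the largest authors' mean normalized count of the members in females, 17061. PARRI_0005826.t1 had 69.8, 802 and 877 TPM in females, against 31.3, 74.0, 447 and 102 TPM in males. In both only female library 1 fell within the male range. They were not called (limma, Benjamini-Hochberg FDR 0.123 and 0.179).

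The largest ratios between female libraries came in part from values listed at 0. PARRI_0017567.t1 was listed at 0 in female library 1 and in male libraries 1, 3 and 4, and had 229 and 415 TPM in female libraries 2 and 3 and 29.2 TPM in male library 2. Its authors' mean normalized counts were 15.6 in females and 0.375 in males, so few reads stood behind these values. PARRI_0004702.t2 was listed at 0 in female library 1 and had 88.1 and 96.4 TPM in the other two, against 25.6, 33.6, 79.6 and 55.4 TPM in males. Neither was called by limma.

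Among the members with the next largest ratios, PARRI_0011577.t1 had 9.17, 134 and 345 TPM in females, against 146, 86.6, 712 and 58.2 TPM in males. PARRI_0017130.t1 had 4.55, 34.5 and 125 TPM in females, against 8.24, 64.4, 10.5 and 19.4 TPM in males. These showed different male orders, with library 3 high in PARRI_0011577.t1 and library 2 high in PARRI_0017130.t1. PARRI_0016061.t1 had 12.1, 162 and 281 TPM in females, against 189, 78.5, 307 and 53.4 TPM in males. PARRI_0010984.t1 had 7.39, 71.6 and 139 TPM in females, against 31.2, 39.5, 24.02 and 16.8 TPM in males. PARRI_0013934.t1, with the female values given above, had 277, 148, 318 and 52.9 TPM in males. None of these 5 was called by limma, and in each the lowest female library was below every male library.

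The male libraries, which the rule did not use, also differed among themselves in these transcripts. Male library 3 was the highest male library in 46 of the 76 members (60.5%), library 1 in 17, library 2 in 12 and library 4 in 1. Male library 4 was the lowest in 49 (64.5%), library 1 in 11, library 2 in 9 and library 3 in 7. Over the other 3900 tested transcripts with a female mean of at least 50 TPM, library 3 was highest in 32.6% and library 4 lowest in 29.2%. The members that were both highest in male library 3 and lowest in male library 4 numbered 32 (42.1%), against 15.6% of the other transcripts. The relation to female libraries was seen in these data and then described, with no test.

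On the log2 scale, the median deviation of the members from the mean of the 4 male libraries was 0.28 in library 1, −0.13 in library 2, 0.54 in library 3 and −0.65 in library 4. Rescaling to equal sums gave 0.0344 in library 2, whose sign turned, and kept the sign of the other three. Over the transcripts in neither of the sets with a 4-fold span in order, these medians lay between −0.03 and 0.07. The members spanned more among males: the highest male library was a median of 3.76 times the lowest (quartiles 2.18 and 6.95), against 1.63 (1.36 and 2.17) over the other 3900 transcripts. Over the 157 transcripts with the opposite female order this median was 3.16 (2.18 and 6.91), so the wide male span was not particular to the members. A span of at least 5-fold among males was found in 26 members (34.2%), against 5.63% of all tested transcripts with a female mean of at least 50 TPM.

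The 157 transcripts with the opposite female order had the opposite sign in male libraries 3 and 4. Their median deviation was 0.39 in male library 1, −0.24 in library 2, −0.60 in library 3 and 0.43 in library 4. They were highest in male library 4 in 73 and in library 1 in 70, and highest in library 3 in 2. They were lowest in male library 3 in 91 (58.0%). The 94 transcripts lowest in female library 1 and highest in female library 2 resembled the members, with male library 3 highest in 58 (61.7%) and male library 4 lowest in 72 (76.6%).

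**Figure D4:**
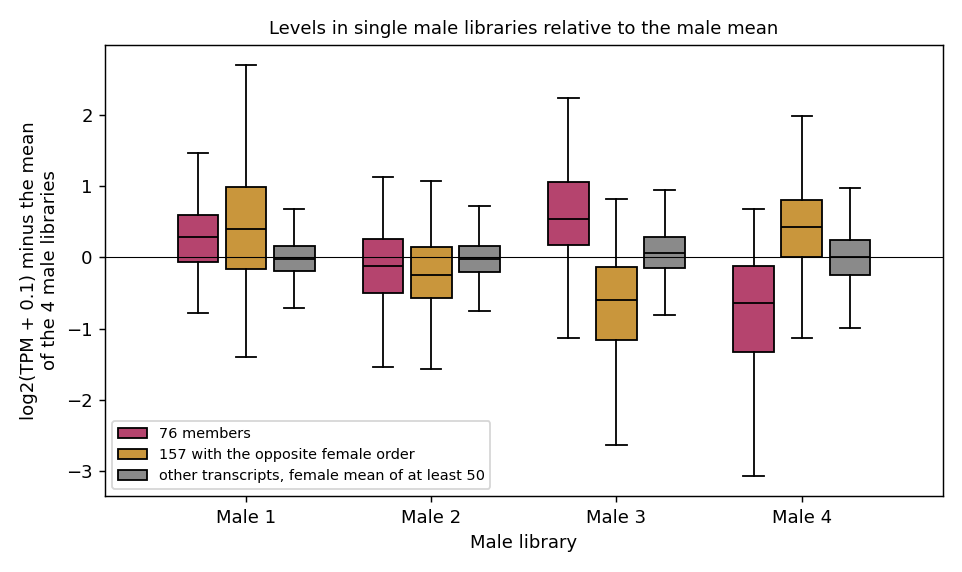
Level in each male library as log2(TPM + 0.1) minus the mean of the 4 male libraries, for the 76 members (pink), the 157 transcripts with the opposite female order (ochre) and the other transcripts with a female mean of at least 50 TPM (grey). Boxes span the quartiles, lines are medians and whiskers reach the last value within 1.5 box lengths. Members have medians of 0.54 in male library 3 and −0.65 in male library 4, where the transcripts of the opposite order have −0.60 and 0.43.

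Members of all 3 blocks took part in the male profile. Male library 3 was above male library 4 in 22 of the 27 members with low male levels, in 20 of the 27 intermediate members and in all 22 members with high male levels. Over the other 3900 tested transcripts with a female mean of at least 50 TPM this share was 53.7%. Male library 4 was the lowest in 15 of the 27, 13 of the 27 and 21 of the 22, against 29.2% of those other transcripts. Male library 1 was the lowest in 8 of the intermediate members. The median ratio of male library 3 to male library 4 was 1.77, 1.72 and 3.79 in the 3 blocks, and 2.52 over all members. Over the 10 male-biased members, male library 4 was lowest in all 10, male library 1 highest in 6 and male library 3 highest in 4.

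Over bins of transcripts, the median ratio of male library 3 to male library 4 rose with the ratio of female library 3 to female library 1. The median male ratio was 0.407 over the 87 transcripts with a female ratio below 0.125, and 0.845 over the 512 with a female ratio between 0.5 and 1. It was 1.03 over the 1547 with a female ratio between 1 and 2, and 1.17 over the 1330 between 2 and 4. It was 2.76 over the 89 transcripts between 4 and 8, of which 51 were members, and 3.52 over the 43 at 8 or more, of which 25 were members. Over the 3743 transcripts in neither set, Pearson's r between the log2 ratios was 0.29 and Spearman's rho 0.29, while over the 76 members r was −0.02. Each ratio comes from the same 2 libraries for every transcript, so transcripts are not independent replicates and no p is given.

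**Figure D5:**
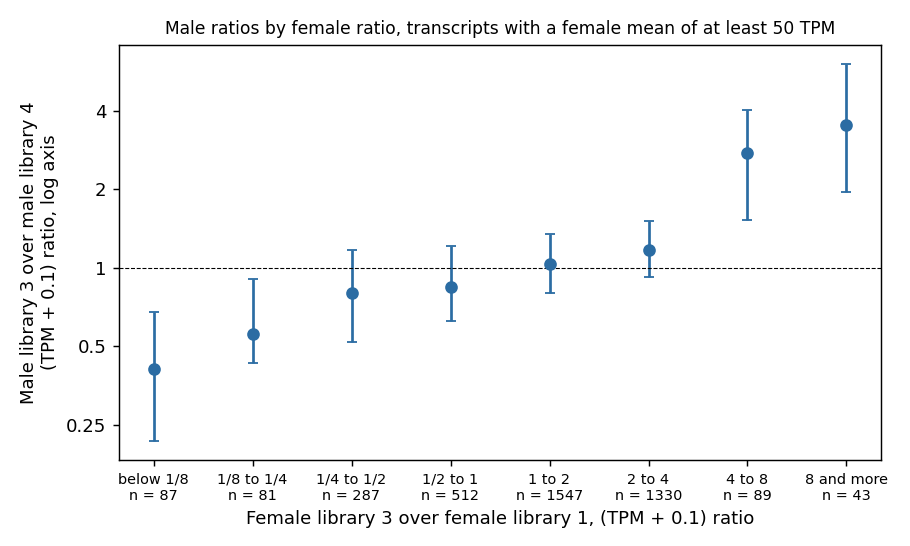
Ratio of male library 3 to male library 4 (y axis, TPM + 0.1, log axis) in bins of the ratio of female library 3 to female library 1 (x axis), over the 3976 transcripts with a female mean of at least 50 TPM. Points are medians and bars quartiles. The median is 0.407 in the lowest bin and 3.52 in the highest.

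Not every member had this profile. PARRI_0005815.t1 had 1.15, 227, 2.30 and 129.5 TPM in males, and PARRI_0005816.t1, at the next locus number, had 0.237 and 175 TPM in male libraries 1 and 2, was listed at 0 in library 3 and had 52.4 TPM in library 4. Both were thus near 0 in the male libraries where most members were high. Their female values, given above, were highest in library 3 by a wide margin. Neither was called (limma, Benjamini-Hochberg FDR 0.184 and 0.177). The authors' mean normalized counts in males were 599 and 376, means over 4 libraries that differed this widely.

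A total of 19 members had another member within 10 locus numbers, in 10 pairs of next members. Locus numbers are those of the identifiers, and distances on the genome were not analysed here. Only the pairs PARRI_0003072.t1 with PARRI_0003073.t1 and PARRI_0005815.t1 with PARRI_0005816.t1 were within 2 numbers. PARRI_0003073.t1 was 1.05 to 1.19 times PARRI_0003072.t1 in every library, a nearly fixed ratio in both sexes. Their coding sequences were not compared, and reads that match both would have been shared between them by the authors' counting, so their values may not be independent. PARRI_0001486.t1 was 5.97 to 20.7 times PARRI_0001482.t1.

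Some neighbours fell in different blocks and others in the same. PARRI_0000943.t1 had a male mean below female library 1, and PARRI_0000947.t1, 4 locus numbers away, had a male mean above female library 3. PARRI_0011590.t1 and PARRI_0011593.t1 both had higher levels in males: PARRI_0011590.t1 had 60.9, 247 and 346 TPM in females, against 707, 494, 646 and 452 TPM in males, and was called (limma, log2 difference −1.70, Benjamini-Hochberg FDR 0.0348). PARRI_0011593.t1 had 18.1, 199.8 and 321 TPM in females, against 757, 602, 680.3 and 203 TPM in males, and was not called (FDR 0.0777). These pairs were picked after their values were seen.

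Beside PARRI_0005826.t1, both adjacent loci had a similar pattern without meeting the rule. PARRI_0005825.t1 had 12.7, 380.4 and 218 TPM in females, against 15.4, 21.7, 259 and 26.7 TPM in males. PARRI_0005827.t1 had 22.8, 386 and 327 TPM in females, against 9.38, 47.6, 169 and 44.5 TPM in males. In all 3 loci female library 1 was low and male library 3 high, but female library 2 was the highest in the neighbours. They were also picked after their values were seen.

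For 3 members, or 3.95%, the matrix holds another transcript of the same locus, against 4.00% of the tested transcripts with a female mean of at least 50 TPM. At PARRI_0000626 the second isoform was the member, and the locus sum met the rule too. At PARRI_0000684 the other transcript, PARRI_0000684.t1, had 27.02, 55.7 and 85.9 TPM in females and between 0.878 and 2.14 TPM in males, so both isoforms had the same female order and low male levels. The locus sum, 49.4, 115 and 186 TPM in females, fell short of the 4-fold ratio.

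The PARRI_0004702 locus differed by isoform. PARRI_0004702.t1, the other transcript, had 117, 73.6 and 161 TPM in females, against 50.2, 50.5 and 29.02 TPM in male libraries 1 to 3, and was listed at 0 in male library 4. The sum of both was 117, 162 and 257 TPM in females, against 75.8, 84.1, 109 and 55.4 TPM in males. In female library 1 the whole level of the locus was assigned to PARRI_0004702.t1, and in male library 4 to PARRI_0004702.t2. The fitted log2 difference of PARRI_0004702.t2 was −2.22 ± 2.17 (limma, SE, Benjamini-Hochberg FDR 0.4), although its mean was higher in females, since the value of 0 enters as 0.1 on the log2 scale. With transcripts summed by locus, 77 loci met the rule, and 74 of the 76 members belonged to them.

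A single member was on the lists of families checked here, which held 69 transcripts of the matrix. None of the 13 CAHS, 36 AMNP, 5 DMRT, 3 sxl candidate, 1 tra2 or 1 Dsup transcripts was a member, and 1 of the 10 SAHS transcripts was. That member, PARRI_0017439.t1, had 20.5, 108 and 136 TPM in females, against 80.8, 35.2, 83.5 and 27.3 TPM in males. Female library 1 lay below every male library and female libraries 2 and 3 above every male library, and the log2 difference was 0.41 ± 0.70 (limma, SE, Benjamini-Hochberg FDR 0.631). Male library 3 was the highest of its males and male library 4 the lowest, as in 32 of the 76 members.

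The SAHS transcripts were split in their female order. Of the 10, 4 were lowest in female library 1 and highest in library 3, and 4 had the opposite order. The nearest to the ratio of 4, below the limit on the mean, was PARRI_0001329.t1, with 6.48, 18.7 and 26.04 TPM in females, against 16.7, 9.98, 42.7 and 4.53 TPM in males, a female ratio of 3.97. The strongest opposite was PARRI_0006064.t1, with 338, 144 and 6.29 TPM in females, against 554, 176, 119 and 538 TPM in males. Male library 3 was above male library 4 in 8 of the 10. Among the 10, limma at an FDR below 0.05 called 1, PARRI_0012415.t1, which was higher in females (log2 difference 2.65, Benjamini-Hochberg FDR 0.0108) and is not a member.

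Depth differed among the members. The authors' mean normalized count in females had a median of 392, quartiles of 192 and 729, and a lowest value of 4.81 in PARRI_0013884.t1. In 7 members it was under 50 in both sexes, so that few reads stood behind TPM values of 50 or more. PARRI_0013884.t1 had 25.3, 57.2 and 111 TPM in females, against 110, 87.7, 273 and 36.5 TPM in males, on counts of 4.81 in females and 9.18 in males. Without these 7, male library 3 was highest in 43 of 69 members and male library 4 lowest in 45 of 69.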

How the data were processed

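The authors mapped reads to predicted coding sequences, quantified them with RSEM 1.3.3 and rescaled the TPM values by TMM (trimmed mean of M values). The authors deposited this scaled TPM signal, which keeps no read depth. Per the file headers, a second deposited table holds mean normalized counts per sex from DESeq2 1.38.0, which were used as the authors' means to describe depth. Its other columns hold the authors' fold changes and p-values and were not used. The genome build was not given in the sources used here, and no identifier of a member was in the RefSeq gene table, so no sequence or coordinate is given.

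Differences of females minus males on log2(TPM + 0.1) were fitted in R 4.3.3 by limma 3.58.1 on sex alone, with two-sided tests, a trended prior and Benjamini-Hochberg adjustment over 18420 transcripts. The added 0.1 shrinks ratios between low values, but a value of 0 enters as 0.1 and can widen a difference or turn its sign. Values of 0 are called listed at 0. The fit was tested on simulated data. Python 3.11.15, pandas 2.3.3, NumPy 2.4.6 and matplotlib 3.10.9 were used otherwise.

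The members and gene lists were chosen with earlier results of these data known. Named were members on a gene list, the 8 with the largest ratio of female library 3 to library 1, the 8 with the largest female mean, the 6 highest and 4 lowest in male mean, the 6 largest differences called in each direction, transcripts at the limits of the rule and runs of neighbouring loci. Others were named after their values were seen. Alternatives were another pseudocount, filters, scalings, priors, a replicate block, other limits of the rule and leaving out each library. Leaving out members with few counts, and the counts by male library, were added after seeing the data.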

Additional observations from a re-analysis of the deposited data

Results flagged for a closer look

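A single male library stood far from the other three, by its gap to the nearest relative to the range of the 4, in 7 of the 76 members. About 1 in 20 such groups is flagged by chance if values within a group are normal, which was not checked. No share over other transcripts is given, so nothing is read from the count. The far library was the low library 4 in 3 of them: PARRI_0000626.t2 with 31.3 TPM, PARRI_0001134.t1 with 3.23 TPM and PARRI_0023534.t1 with 4.61 TPM. It was the high library 3 in 2, PARRI_0005498.t1 with 107 TPM and PARRI_0011577.t1 with 712 TPM. It was the high library 2 in 2, PARRI_0005140.t1 with 39.4 TPM and PARRI_0017567.t1 with 29.2 TPM, where the other male libraries were listed at 0 for PARRI_0017567.t1. None was far in male library 1.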

How the results depend on the processing

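TPM keeps no depth, so no counting interval is given, and 7 members rested on few reads. The members higher in females numbered 19 to 40 over the fits without each library, the highest without female library 1, and those higher in males 4 to 11. Over all tested transcripts, 6260 to 10490 were called in either direction in these fits. Without a filter on low values, 2 members were higher in males. Every female library was above every male library in 21 to 43 members, and every male library above every female library in 9 to 14. The rule was met by 230 transcripts at a ratio of 3, 133 at a mean of 20, 39 at a mean of 100, and 48 each after rescaling to 1000000 and quantile normalization. Rescaling turned the median deviation in male library 2 to 0.0344. The log2 difference of PARRI_0017439.t1 was −0.10 to 1.26 over the fits without each library, negative without female library 3. The labels do not say whether same-numbered libraries shared a batch, and this was not tested. Deviations of same-numbered libraries correlated at −0.01, 0.03 and 0.25. Female libraries 1 and 2 correlated best with another number, and female library 3 with male library 3. With replicate number as a block the members called were 26 higher in females and 10 higher in males, with a median difference of 0.85. Male library 4 has no female of its number, so it added nothing to the differences in that fit. The median difference was also 0.85 without male library 4. Of the other comparisons with an alternative, 296 kept their direction and side of the threshold, or a count within 1.5 times, and in 14 a single transcript lost its call.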
